A study of Mus musculus with 12 samples.

Results

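The HDAC2-/- kidney 4 h after ischemia was described across all genes of the array, by setting the 3 arrays of ischemic HDAC2-/- kidneys against the 3 arrays of HDAC2-/- kidneys without ischemia. These 6 arrays were taken by their titles from the 12 arrays of the series, and the other 6 were ischemic WT and WT kidneys, 3 each. All mice were female and 8 to 12 weeks old. Ischemic HDAC2-/- mice carried floxed HDAC2 alleles and a tamoxifen-inducible Cre (labelled HDAC2fl/fl-ERTcre, active in most tissues per the study's methods). Their left renal pedicle was clamped for 28 min, the right kidney was removed, and the left kidney was collected 4 h later. HDAC2-/- mice had the same genotype and no ischemia. Ischemic WT and WT mice were labelled Wild type ERT2cre, although the study's text names WT B6 controls. Every group received tamoxifen at 100 mg/kg on 5 days, followed by 7 days of recovery. The sample labels give renal cortex and the methods give whole kidney. A body temperature of 37 C is given for the ischemic groups and none for the others, and the methods give a slightly lower one. No sham operation is described. The effect of ischemia therefore cannot be told apart from that of anesthesia, of warming, of surgery or of losing the right kidney.

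HDAC2 is a histone deacetylase that removes acetyl groups from histone tails and sits in the CoREST, NuRD and Sin3 repressor complexes. Ischemia followed by reperfusion deprives the tubule of ATP and oxygen and then exposes it to oxidants. The first hours are known for immediate early transcription factors, whose genes are transcribed without prior new protein synthesis. These hours are also known for heat shock proteins, which refold damaged proteins, and for secreted signals that call in leukocytes. The proximal tubule and the thick ascending limb, which use the most ATP for transport, are the segments best known to be injured.

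Each array gave 34472 probe sets on the log2 scale, so a difference of 1 is a 2-fold difference. Array medians lay between 5.62 and 5.76, and the median standard error (SE) of the change in HDAC2-/- kidneys was 0.17. Nothing beyond the labels says how the mice were bred or housed, so p values measure the spread between these arrays. Hdac2 itself, the deleted gene, read 8.12, 7.95 and 8.32 in ischemic HDAC2-/- kidneys and 7.83, 7.68 and 8.45 in HDAC2-/- kidneys, against 7.93, 8.17 and 7.94 in ischemic WT kidneys and 7.90, 7.85 and 8.01 in WT kidneys. The arrays labelled HDAC2-/- thus overlapped those labelled WT. Which exons this probe set covers is not given, so its level is no test of the deletion. HDAC2-/- here means the arrays so labelled. The paper reports loss of the protein by Western blot and immunoperoxidase staining in contralateral kidneys from its ischemia experiments. Whether the mice of these arrays were among them is not given. HDAC2-/- replicate 3 stood apart from its group, with an array weight of 0.38 against 1.52 and 1.90 for replicates 1 and 2. Among the ischemic HDAC2-/- arrays the weights were 0.57, 0.90 and 2.48.

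At 4 h after ischemia the HDAC2-/- kidney held more transcripts of stress, injury and signalling genes. It held fewer of several tubular transport and endothelial genes, but many of these falls were lost when 1 array was left out. Endothelial markers moved in both directions. At an adjusted p under 0.05 (limma, with Benjamini-Hochberg adjustment across the whole array), 1691 probe sets changed, which is 4.91% of those tested. Of these, 1013 rose (2.94%) and 678 fell (1.97%). With array weights this balance turned, to 2947 higher and 3409 lower, and without HDAC2-/- replicate 3 it was 1477 higher and 1371 lower. The rises were larger, since 432 rose and 144 fell by at least 2-fold, 68 rose and 1 fell by at least 4-fold, and 18 rose and 0 fell by at least 8-fold. In 1672 of the 1691 the ischemic and non-ischemic arrays did not overlap, whereas 9.91% of all probe sets lay without overlap above and 10.2% below. Counted over the 22180 genes with a probe set of 1 symbol, 822 rose (3.71%) and 566 fell (2.55%), and the median change over all genes was -0.02. The counts depended on single arrays, with 2848 calls when HDAC2-/- replicate 3 was left out, 744 for replicate 2, 799 for replicate 1, 817 for ischemic HDAC2-/- replicate 3 and 1078 for ischemic HDAC2-/- replicate 2. Calls that held in each of the 12 fits that left out 1 array numbered 630, of which 460 were rises and 170 were falls.

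The largest measured rise was that of Krt20, an intermediate filament keratin of simple epithelia. Krt20 read 10.01, 9.24 and 10.15 in ischemic HDAC2-/- kidneys, against 4.64, 4.54 and 4.93 in HDAC2-/- kidneys. Its ischemic arrays all stood more than 4 log2 units above the others (log2 change 5.10, SE 0.42, adjusted p = 1.21e-05). The levels of Krt20 without ischemia lay below the array medians, and whether they exceed background is not given, so its change may understate the difference. Sprr1a, a small proline-rich protein of stressed epithelia, read 11.36, 10.79 and 11.98 in ischemic HDAC2-/- kidneys, against 6.18, 6.39 and 7.27 in HDAC2-/- kidneys. Atf3, a stress-induced transcription factor, read 11.77, 10.50 and 10.45 in ischemic HDAC2-/- kidneys and 6.79, 6.28 and 6.72 in HDAC2-/- kidneys. The first ischemic array was the highest for Atf3 and for Fosb, which rose by 4.28 on the log2 scale. Tnfrsf12a, the receptor of the cytokine TWEAK, was the most even, at 12.60, 12.52 and 12.52 in ischemic HDAC2-/- kidneys and 8.77, 8.66 and 8.84 in HDAC2-/- kidneys (log2 change 3.79, SE 0.14, adjusted p = 6.39e-09).

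Next in size came genes of defence against heme, oxysterol production and iron binding. Hmox1, which breaks down heme, rose by 3.42 and Ch25h, which makes 25-hydroxycholesterol, rose by 3.36. Lcn2, the iron-siderophore binder also known as NGAL, rose by 3.33, and Sprr2g, another small proline-rich protein, rose by 3.59 (members of the Sprr2 family are alike in sequence and can share signal). Plk3, a stress-responsive kinase, read 12.48, 11.70 and 11.85 in ischemic HDAC2-/- kidneys and 9.35, 8.38 and 8.90 in HDAC2-/- kidneys. Prrg4, a membrane protein with a Gla domain, rose by 3.11, and Chac1, which degrades glutathione, rose by 3.03. Hspa1b, Hspb1 and Ccl2, which complete the 15 largest rises, are described with their groups. All 15 kept an adjusted p under 0.05 whichever array was left out.

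Falls were smaller and led by a receptor of endothelial cells. Aplnr, the apelin receptor, read 5.69, 6.29 and 6.29 in ischemic HDAC2-/- kidneys, against 8.60, 8.09 and 8.25 in HDAC2-/- kidneys, and was the 1 probe set that fell by more than 4-fold (log2 change -2.22, SE 0.24, adjusted p = 0.000113). Nrep fell by 1.92 and Igfbp5, a binder of insulin-like growth factors, by 1.70. Cyp27b1, the 1-alpha-hydroxylase that activates vitamin D in the proximal tubule, read 7.49, 7.38 and 7.46 in ischemic HDAC2-/- kidneys, against 9.53, 8.98 and 9.21 in HDAC2-/- kidneys. Its ischemic arrays lay within 0.2 of each other and below every array without ischemia.

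Bsnd, the barttin subunit of the chloride channels of the thick ascending limb and collecting duct, read 9.68, 9.29 and 9.10 in ischemic HDAC2-/- kidneys, against 11.22, 11.28 and 10.37 in HDAC2-/- kidneys. Klhl3, the ubiquitin ligase adaptor that targets WNK kinases in the distal tubule, fell by 1.38. Npr3, the clearance receptor of natriuretic peptides, fell by 1.41, and Tcf21, a transcription factor of podocytes and stroma, also fell by 1.41. The remaining genes among the 15 largest falls were Tldc2, Cdkl1, Tril, Smim5, Spatc1l, Cyp2u1 and Rps23rg1, with changes of -1.72 to -1.37. Rps23rg1 is a retroposed copy of Rps23 and can share signal with it. Each of these 15 calls also held whichever array was left out.

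**Figure D1:**
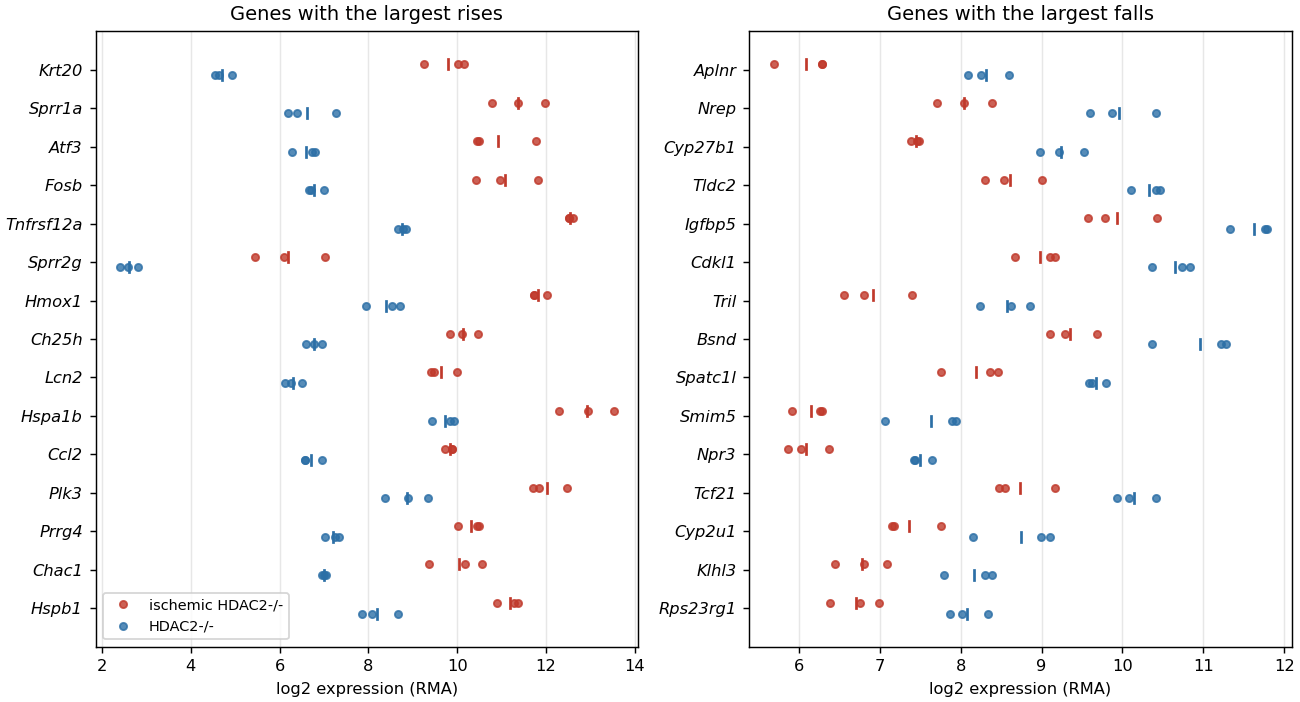
Log2 expression (x axis) of the 15 genes with the largest rises (left panel) and the 15 with the largest falls (right panel) in ischemic HDAC2-/- kidneys (red, upper row of each gene) and HDAC2-/- kidneys (blue, lower row). Points are single arrays, 3 per group, and vertical bars are group means. The genes were chosen among those whose groups do not overlap. The shifts on the left, up to 5.10, exceed those on the right, which reach 2.22.

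Immediate early transcription factors rose together. Of 29 measured members, 22 rose (the background over all genes is 3.71%) and 0 fell, with a median change of 1.52 beside -0.02 over all genes. Fosb, a partner of JUN in the AP-1 factor, read 11.81, 10.42 and 10.97 in ischemic HDAC2-/- kidneys, against 6.65, 6.99 and 6.71 in HDAC2-/- kidneys. Myc, which drives growth and ribosome production, read 11.35, 10.53 and 11.09 in ischemic HDAC2-/- kidneys, against 8.28, 8.61 and 7.97 in HDAC2-/- kidneys (log2 change 2.70, SE 0.20, adjusted p = 6.37e-06). The mean level of the list was 10.27, 9.58 and 9.67 in the ischemic HDAC2-/- arrays and 8.32, 8.27 and 8.04 in the HDAC2-/- arrays, so ischemic replicate 1 was the highest. Between 19 and 23 members rose when 1 array was left out.

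Feedback inhibitors of MAP kinase signalling, a list of dual-specificity phosphatases, Sprouty and Spred genes and Errfi1, had 11 of 15 measured members higher, 0 lower and a median change of 1.15. Dusp5, which dephosphorylates ERK in the nucleus, read 10.23, 9.50 and 9.98 in ischemic HDAC2-/- kidneys, against 6.95, 6.90 and 6.92 in HDAC2-/- kidneys. Dusp8, a phosphatase of JNK and p38, rose by 2.52, and Dusp4 rose by 1.70. Among the ligands that feed this pathway, 3 of 12 EGF receptor family genes rose and 0 fell. Nrg1, the neuregulin that binds ERBB3 and ERBB4, read 11.14, 10.49 and 11.11 in ischemic HDAC2-/- kidneys, against 8.49, 8.58 and 8.20 in HDAC2-/- kidneys. Hbegf, a ligand of the EGF receptor, rose by 2.47 and Egfr itself by 1.03, while the median over the 12 genes was 0.08. Without HDAC2-/- replicate 3, 1 member fell.

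Markers of tubular injury and dedifferentiation were higher in 21 of 28 measured genes, with 0 lower and a median change of 1.40. Beside Krt20, Sprr1a and Tnfrsf12a, the kidney injury molecule Havcr1 (chosen after its values were seen) read 7.06, 7.67 and 9.0 in ischemic HDAC2-/- kidneys, against 4.58, 5.72 and 4.79 in HDAC2-/- kidneys. Ischemic replicate 3 was the highest, whereas immediate early genes were highest in ischemic replicate 1. Havcr1 rose by 2.88 (SE 0.52, adjusted p = 0.00499), and no single array decided the call. The mean level of the list was 9.25, 8.72 and 9.03 in ischemic HDAC2-/- arrays and 7.26, 7.30 and 7.27 in HDAC2-/- arrays, with no overlap.

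Heat shock proteins and cytosolic chaperones rose in 12 of 24 measured genes, and 0 fell, with a median change of 0.61. Hspa1b, an inducible Hsp70, read 13.52, 12.95 and 12.29 in ischemic HDAC2-/- kidneys, against 9.92, 9.42 and 9.83 in HDAC2-/- kidneys. Hspa1a, its nearly identical neighbour whose signal can be shared with it, read 13.03, 12.61 and 11.89 in ischemic HDAC2-/- kidneys, against 9.87, 9.47 and 9.92 in HDAC2-/- kidneys. Hspb1, a small heat shock protein that binds unfolded proteins and actin, rose by 2.98. The mean level of the 24 genes was 9.78, 9.57 and 9.37 in ischemic HDAC2-/- arrays and 8.54, 8.33 and 8.65 in HDAC2-/- arrays. With 1 array left out, 9 to 13 members rose.

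Heat shock factor 1 is known to bind inverted repeats of GAA. RefSeq promoters (build GRCm38.p6, 250 bases before to 50 after each start site) were matched to 16990 of the measured genes and to 10 of the 12 heat shock genes that rose. The pair of units GAANNTTC, on either strand, was present in 7 of these 10, against 8.18% of all promoters, 8.47% of those of genes that rose and 6.85% of those of genes that fell. Of 3 alternating units spaced by 2 bases, which contain a GAANNTTC or its converse, 3 of the 10 held a match, against 0.63% of all promoters. Over all 21 heat shock genes with a promoter entry, whether or not they rose, 11 held GAANNTTC and 5 held the 3 units. Hspe1 (the mitochondrial cochaperonin) reached an adjusted p of 0.043, with 10.04, 10.53 and 10.10 in ischemic HDAC2-/- kidneys against 8.95, 8.88 and 9.76 in HDAC2-/- kidneys. That call was lost without any of the 3 ischemic HDAC2-/- arrays, HDAC2-/- replicate 1 or 2, ischemic WT replicate 1 or WT replicate 1 or 2. The stretches below, shown because they hold these units upstream of 3 heat shock genes and of Krt20, the gene with the largest rise, have the matches in capitals. They lie at chr17:34959289-34959388 (minus strand), chr5:135887766-135887865 (plus), chr1:55088018-55088117 (plus) and chr11:99438246-99438345 (minus).
Hspa1b: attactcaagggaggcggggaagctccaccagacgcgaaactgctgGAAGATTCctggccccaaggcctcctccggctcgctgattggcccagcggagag
Hspb1: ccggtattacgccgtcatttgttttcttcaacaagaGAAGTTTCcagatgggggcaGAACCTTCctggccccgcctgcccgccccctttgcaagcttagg
Hspe1: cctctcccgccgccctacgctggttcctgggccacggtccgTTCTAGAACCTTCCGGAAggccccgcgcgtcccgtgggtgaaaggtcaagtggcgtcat
Krt20: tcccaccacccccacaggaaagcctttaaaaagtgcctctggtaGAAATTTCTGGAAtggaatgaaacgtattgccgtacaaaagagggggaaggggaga

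Binding letters known for several transcription factors were counted in the same promoters, whether or not the gene of the factor rose. Nfe2l2, which encodes NRF2, changed by 0.19 (adjusted p = 0.704). Srf, the serum response factor, changed by 0.25 (adjusted p = 0.484). TGACTCA, the site known for AP-1 (Fos and Jun proteins), stood on either strand in 9.90% of promoters of genes that rose, 3.65% of those that fell and 5.54% of all. TGACGTCA, the site known for CREB and ATF proteins, stood in 5.11% of promoters of genes that rose, 1.37% of those that fell and 2.65% of all. TGACNNNGC, the core of the site known for NRF2 with small Maf proteins, stood in 22.5% of promoters of genes that rose, 15.5% of those that fell and 14.9% of all. CACGTG, the E-box known for MYC, stood in 15.02% of promoters of genes that rose, 10.05% of those that fell and 9.19% of all. The consensus of NF-kappaB stood in 8.47%, 7.08% and 5.54%, and that of the serum response element in 1.76%, 0.46% and 1.67%. These shares were not tested. Examples with matches in capitals are shown for Sprr1a (TGACTCA, as its reverse complement), Maff (TGACGTCA) and Cxcl1 (NF-kappaB consensus), because they rose and each has its match upstream of the start site. Their stretches are chr3:92485960-92486059 (minus strand), chr15:79347420-79347519 (plus) and chr5:90891129-90891228 (plus).
Sprr1a: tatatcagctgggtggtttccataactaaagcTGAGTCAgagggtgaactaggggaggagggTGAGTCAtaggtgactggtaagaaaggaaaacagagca
Maff: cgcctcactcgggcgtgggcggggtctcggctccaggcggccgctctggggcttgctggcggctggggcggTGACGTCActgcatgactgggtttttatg
Cxcl1: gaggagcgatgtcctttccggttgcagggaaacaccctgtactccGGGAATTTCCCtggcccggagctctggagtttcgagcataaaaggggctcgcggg

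Genes of the integrated stress response, which ATF4 and CHOP switch on when translation is curbed, rose in 11 of 22 measured members, with 0 lower and a median change of 0.90. Chac1 read 10.56, 10.17 and 9.36 in ischemic HDAC2-/- kidneys, against 7.01, 6.95 and 7.05 in HDAC2-/- kidneys. Cebpb, a transcription factor of inflammation and stress, rose by 2.07 and Mthfd2, a mitochondrial enzyme of folate metabolism, by 1.64. The endoplasmic reticulum chaperones showed less, with 2 of 19 higher, 0 lower and a median of 0.13. Dnajb9, a cochaperone of BiP, read 11.95, 12.08 and 12.01 in ischemic HDAC2-/- kidneys, against 10.72, 10.55 and 11.25 in HDAC2-/- kidneys. Atf6, a sensor of unfolded proteins, rose by 0.81, and its call was lost without ischemic HDAC2-/- replicate 3 or HDAC2-/- replicate 1 or 2, which left 1 of the 19.

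NRF2 targets and metallothioneins, which counter oxidants and bind metals, rose in 7 of 21 measured genes, with 0 lower and a median of 0.29. Hmox1 read 11.72, 11.73 and 12.02 in ischemic HDAC2-/- kidneys, against 8.72, 8.54 and 7.94 in HDAC2-/- kidneys. Srxn1 (sulfiredoxin) rose by 1.81 and Txnrd1 (thioredoxin reductase) by 1.37. Of p53 targets and growth arrest genes, 8 of 20 rose and 0 fell, with a median of 0.46. Cdkn1a, the p21 inhibitor of cyclin-dependent kinases, read 12.11, 11.10 and 11.74 in ischemic HDAC2-/- kidneys, against 10.26, 8.89 and 10.12 in HDAC2-/- kidneys, and Gadd45b rose by 1.64. Without ischemic HDAC2-/- replicate 1 or HDAC2-/- replicate 2, 5 of the 20 rose. In the BCL2 family, 2 of 17 rose and 0 fell, and both oppose apoptosis. Mcl1 read 10.93, 10.95 and 10.89 in ischemic HDAC2-/- kidneys, against 9.63, 9.51 and 9.72 in HDAC2-/- kidneys, and Bcl2l1 rose by 1.0.

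Secreted signals rose in part. Of 35 measured chemokines, 5 rose and 1 fell, with a median change of 0.19. Ccl2, which attracts monocytes, read 9.89, 9.72 and 9.89 in ischemic HDAC2-/- kidneys, against 6.95, 6.56 and 6.58 in HDAC2-/- kidneys. Cxcl1, which attracts neutrophils, read 8.67, 8.14 and 8.57 in ischemic HDAC2-/- kidneys, against 5.47, 5.51 and 5.87 in HDAC2-/- kidneys. Cxcl2, with a like role, rose by 1.71, but 3 chemokines in place of 5 rose without ischemic HDAC2-/- replicate 1 or 3 or HDAC2-/- replicate 1 or 2, and the call of Cxcl2 was lost in each of these 4 fits (adjusted p from 0.0778 to 0.13). Ccl27a, a chemokine of epithelia with close copies in the genome, fell by 0.67, and 3 chemokines fell without ischemic WT replicate 2 and 2 without ischemic WT replicate 3 or WT replicate 3.

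Of 28 measured cytokines and growth factors of inflammation, 5 rose and 1 fell, with a median of 0.33. Il6 read 7.64, 6.21 and 5.82 in ischemic HDAC2-/- kidneys, against 3.49, 3.60 and 3.85 in HDAC2-/- kidneys (log2 change 2.91, SE 0.49, adjusted p = 0.0032). Its first ischemic array was over 1 log2 unit above the others. Il34 rose by 1.93 and Csf1 by 1.67, and both are ligands of the macrophage receptor CSF1R. Tnfsf10, the death ligand TRAIL, fell by 0.91. Among IL-6 family receptors and their JAK-STAT signal, 8 of 21 rose and 0 fell. Socs3, the inhibitor that STAT3 induces, read 9.60, 8.85 and 8.68 in ischemic HDAC2-/- kidneys, against 7.01, 6.87 and 6.76 in HDAC2-/- kidneys. Osmr, the oncostatin M receptor, rose by 1.80 and Jak2 by 1.20. Without ischemic HDAC2-/- replicate 1 or 3 or HDAC2-/- replicate 2, 5 of the 21 rose, and 1 fell without HDAC2-/- replicate 3.

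NF-kappaB subunits and targets rose in 8 of 20 measured genes, with 0 lower and a median of 0.58. Bcl3, a nuclear IkappaB protein, read 9.41, 9.07 and 9.23 in ischemic HDAC2-/- kidneys, against 7.99, 7.63 and 7.77 in HDAC2-/- kidneys. Birc3, an inhibitor of apoptosis, rose by 1.26. Nfkbiz rose by 1.10, a call lost without ischemic HDAC2-/- replicate 1 or HDAC2-/- replicate 1, and without ischemic replicate 1 the list count was 4. Interferon-stimulated genes did not share this direction, with 0 of 21 higher and 2 lower. Rsad2, an antiviral enzyme, fell by 0.89 and Cmpk2, its neighbour in the genome, by 0.73. The falls numbered 5 when HDAC2-/- replicate 3 was left out and 0 when ischemic HDAC2-/- replicate 3 was, and 1 when it was ischemic HDAC2-/- replicate 1 or HDAC2-/- replicate 1 or 2.

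Coagulation, matrix and cell shape genes were counted next. Of the plasminogen and coagulation genes, 7 of 21 rose and 0 fell, with a median of 0.29. Plaur, the urokinase receptor, read 10.05, 9.17 and 9.96 in ischemic HDAC2-/- kidneys, against 7.37, 6.78 and 7.01 in HDAC2-/- kidneys. F3 (tissue factor), which starts coagulation, rose by 1.81, and Thbs1 (thrombospondin 1) by 1.89. Of 30 matrix and protease genes, 5 rose and 0 fell, with a median of 0.11 and 13 below 0, among them Adamts1 by 2.35, Ccn1 by 1.91 and Adamts4 by 1.53. Without ischemic WT replicate 1, 1 matrix gene fell. Cytoskeleton and focal adhesion genes rose in 14 of 28, with 0 lower and a median of 0.72. Rnd3, which loosens stress fibres, read 8.57, 8.10 and 7.80 in ischemic HDAC2-/- kidneys, against 5.87, 6.33 and 6.75 in HDAC2-/- kidneys. Itga5, the fibronectin receptor subunit, rose by 1.47 and Tpm4, a tropomyosin, by 1.36, and 8 of the 28 rose without HDAC2-/- replicate 2.

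Ribosome biogenesis genes were higher in 11 of 33 measured members, with 0 lower and a median change of 0.43. Gnl3 (nucleostemin) read 7.66, 7.58 and 7.78 in ischemic HDAC2-/- kidneys, against 6.01, 5.96 and 6.38 in HDAC2-/- kidneys. Wdr43 rose by 1.32 and Nop58, a core protein of box C/D small nucleolar particles, by 1.20. Leaving out ischemic HDAC2-/- replicate 3 or HDAC2-/- replicate 2 gave 6, and leaving out HDAC2-/- replicate 1 gave 7. The cytosolic ribosomal proteins themselves were near background, with 1 of 32 higher (Rps15, by 0.71), 0 lower and a median of 0.07. Of these, 0 rose without ischemic HDAC2-/- replicate 2 or 3 or HDAC2-/- replicate 1, and 3 without HDAC2-/- replicate 3.

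Glucocorticoid-responsive genes rose in 5 of 14 and fell in 1, with a median of -0.03. Zbtb16 read 10.13, 9.80 and 10.09 in ischemic HDAC2-/- kidneys, against 8.27, 7.54 and 7.56 in HDAC2-/- kidneys. Fkbp5, a cochaperone of the glucocorticoid receptor, rose by 1.78, and Pdk4, which shuts carbohydrate out of the Krebs cycle, rose by 2.59. Nr3c2, the mineralocorticoid receptor, fell by 0.56, a call lost without ischemic HDAC2-/- replicate 3 or HDAC2-/- replicate 1 or 2. Leaving out ischemic HDAC2-/- replicate 3 or HDAC2-/- replicate 2 gave 3 rises. Of 17 clock genes, 3 rose and 0 fell. Nfil3 rose by 1.89, the repressor Cry1 by 1.50 and Per1 by 1.09. Per1 lost its call without ischemic HDAC2-/- replicate 1 or HDAC2-/- replicate 2, and 6 clock genes rose without HDAC2-/- replicate 3. The hour of collection is not given for any group, so its part was not tested.

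Metabolic lists held few calls. Of 28 genes listed as HIF targets or glycolytic genes, 4 rose and 0 fell, with a median of -0.01. The list also counts Pigq, which is neither and was not called (log2 change -0.46, adjusted p = 0.108). Adm (adrenomedullin) read 8.08, 7.65 and 8.20 in ischemic HDAC2-/- kidneys, against 6.91, 6.77 and 6.62 in HDAC2-/- kidneys, and Pfkfb3, a driver of glycolysis, rose by 1.03. Hif1a rose by 0.69 with an adjusted p of 0.0425, a call lost without any HDAC2-/- or ischemic HDAC2-/- array except HDAC2-/- replicate 3, and without ischemic WT replicate 1 or 3 or any WT array. Without ischemic HDAC2-/- replicate 1, 2 or 3 or HDAC2-/- replicate 1 or 2, 2 members of the list rose, and 2 fell without HDAC2-/- replicate 3. Of 25 fatty acid oxidation genes and PPAR-alpha targets, 2 rose, both known to be induced in fasting: Pdk4 and Angptl4, an inhibitor of lipoprotein lipase that rose by 2.46. Their list fell in 0 genes, with a median of -0.08, and in 3 without HDAC2-/- replicate 3 and 1 without ischemic WT replicate 2.

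Of 25 genes listed for gluconeogenesis and amino acid metabolism in the proximal tubule, 1 rose and 3 fell, with a median of -0.29 and 19 below 0. Of the 3 falls, 1 was that of Cyp27b1, which activates vitamin D and belongs to neither function. Beside Cyp27b1, Ass1 (argininosuccinate synthase) fell by 1.19 and Gatm, which makes the precursor of creatine, by 0.50, while Gldc, of the glycine cleavage system, rose by 0.83. Ass1 read 6.34, 6.45 and 6.72 in ischemic HDAC2-/- kidneys, against 8.41, 7.76 and 6.91 in HDAC2-/- kidneys. The falls numbered 6 without HDAC2-/- replicate 3 and 1 (Cyp27b1) without ischemic HDAC2-/- replicate 2 or HDAC2-/- replicate 1 or 2. The call of Ass1 was also lost without ischemic HDAC2-/- replicate 1, and that of Gatm without ischemic HDAC2-/- replicate 3 or any WT array. The rise of Gldc was lost without ischemic HDAC2-/- replicate 1 or 3 or HDAC2-/- replicate 2. Sterol synthesis had 1 of 14 genes higher and 2 lower, with a median of -0.21. Dhcr7, which completes cholesterol synthesis, fell by 1.01 whichever array was left out, although the other calls of this list, Mvk at -0.75 and Hmgcs1 at 0.74, were each lost in 9 or more of the 12 fits without 1 array, and kept without HDAC2-/- replicate 3 or ischemic WT replicate 2.

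Respiratory chain and ATP synthase subunits had 0 of 38 genes called, with a median of -0.12 and 32 below 0. The 2 with the smallest p were Ndufa10, at -0.40 (adjusted p = 0.225), and Uqcrc1, at -0.36 (adjusted p = 0.284). Cell cycle genes had 0 of 29 called, with a median of -0.14. E2f1 stood at -0.52 (adjusted p = 0.0581) and Mcm2 at -0.70 (adjusted p = 0.0641), and 1 cell cycle gene fell without ischemic HDAC2-/- replicate 1, HDAC2-/- replicate 3 or ischemic WT replicate 2, and 2 without WT replicate 1. Of 30 proteasome subunits, 1 rose (Psmd11, by 0.53), with a median of 0.07. Leaving out HDAC2-/- replicate 3 gave 3 rises, ischemic WT replicate 2 gave 2, ischemic HDAC2-/- replicate 2 or ischemic WT replicate 1 gave 1, and any of the other 8 arrays gave 0. The 22 measured chromatin regulators listed as partners of HDAC2, which include subunits of CoREST, NuRD and Sin3, had 0 called and a median of -0.13. Dot1l stood at 0.78 (adjusted p = 0.0859) and Mbd2 at 0.35 (adjusted p = 0.135), and 1 member rose without ischemic HDAC2-/- replicate 2.

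**Figure D2:**
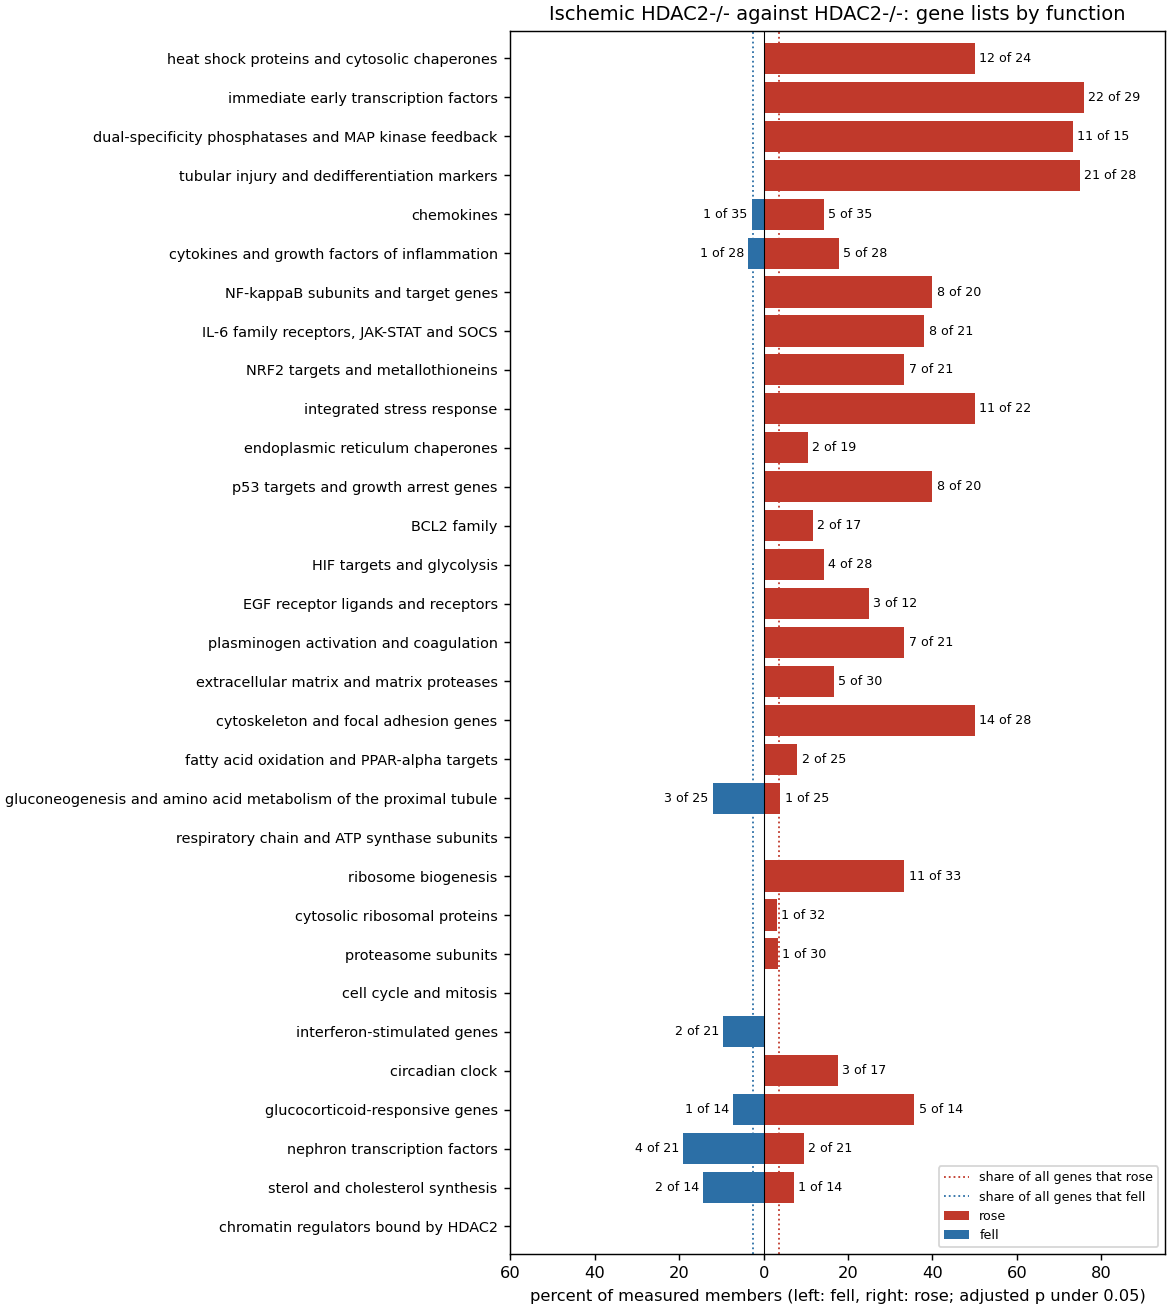
Percent of the measured members of each functional gene list that rose (red, right) or fell (blue, left) in ischemic HDAC2-/- against HDAC2-/- kidneys at an adjusted p under 0.05, with counts beside the bars. Dotted lines give the shares over all genes, 3.71% higher and 2.55% lower; immediate early factors (22 of 29), injury markers (21 of 28) and MAP kinase feedback genes (11 of 15) have the longest bars.

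Marker genes were then counted by nephron segment, and no difference between segments was tested. Less RNA per cell and fewer cells of a type cannot be told apart in tissue RNA. The defining markers of the cortex were present, with Slc34a1, the phosphate transporter of the proximal tubule, at 13.99, 13.86 and 13.88 in ischemic HDAC2-/- kidneys and 14.07, 14.02 and 13.84 in HDAC2-/- kidneys. Of 27 proximal tubule markers, 1 rose and 1 fell (2.55% of all genes fell), with a median of -0.24. Slc13a1, a sulfate transporter, rose by 0.65 and Slc7a8, an amino acid transporter, fell by 0.59. The fall was lost without ischemic HDAC2-/- replicate 2 or 3 or HDAC2-/- replicate 1 or 2, and the rise was lost in 9 of the 12 fits, all but those that left out HDAC2-/- replicate 3, ischemic WT replicate 2 or WT replicate 3. Without HDAC2-/- replicate 3, 5 proximal tubule markers fell.

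Intercalated cell markers leaned lower, since all 16 had a change below 0 and 6 fell, with a median of -0.77. Slc4a1, the basolateral chloride-bicarbonate exchanger of acid-secreting cells, read 8.44, 7.55 and 7.79 in ischemic HDAC2-/- kidneys, against 9.40, 9.65 and 8.67 in HDAC2-/- kidneys. Hmx2, a transcription factor listed for these cells, read 7.32, 8.30 and 7.97 in ischemic HDAC2-/- kidneys, against 9.17, 8.89 and 8.89 in HDAC2-/- kidneys, and kept its call whichever array was left out. Insrr, a receptor that senses alkaline fluid, fell by 1.34, with HDAC2-/- replicate 3 (8.58) below ischemic HDAC2-/- replicate 1 (8.78). The mean level of the list was 9.07, 8.45 and 8.67 in ischemic HDAC2-/- arrays and 9.63, 9.63 and 9.26 in HDAC2-/- arrays, so HDAC2-/- replicate 3 was the lowest of its group. The count of falls rested on single arrays, since only Hmx2 kept its call without ischemic HDAC2-/- replicate 2 or 3 or HDAC2-/- replicate 1 or 2. That of Insrr was also lost without ischemic WT replicate 1 or WT replicate 1 or 2.

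In the thick ascending limb, 0 of 11 markers rose and 2 fell, with a median of -0.46. Beside Bsnd, the tight junction gene Cldn10 read 10.25, 10.20 and 10.07 in ischemic HDAC2-/- kidneys, against 10.77, 10.87 and 10.97 in HDAC2-/- kidneys. Its call was lost without ischemic HDAC2-/- replicate 3. The defining markers Umod (uromodulin) and Slc12a1 (the cotransporter that furosemide blocks) stood at -0.21 (adjusted p = 0.724) and -0.33 (adjusted p = 0.652). In the distal convoluted and connecting tubule, 2 of 12 fell, Klhl3 and the potassium channel gene Kcnj10 (by 0.56), with a median of -0.52. Leaving out HDAC2-/- replicate 3 gave 4 falls, and leaving out ischemic HDAC2-/- replicate 2 or 3, HDAC2-/- replicate 1 or 2 or any WT array gave 1. Of 12 principal cell markers, 2 fell: Avpr2, the vasopressin receptor, by 1.02, and Hsd11b2, which inactivates glucocorticoids, by 0.88. Both falls were lost without ischemic HDAC2-/- replicate 2 or 3 or HDAC2-/- replicate 1 or 2, and that of Avpr2 also without ischemic HDAC2-/- replicate 1. Aqp2, the water channel, read 11.84, 11.94 and 11.69 in ischemic HDAC2-/- kidneys and 11.24, 11.12 and 11.44 in HDAC2-/- kidneys (adjusted p = 0.23).

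Transcription factors of the nephron fell in 4 of 21 genes and rose in 2, with a median of -0.29. Lhx1, known from nephron formation, read 8.36, 8.48 and 8.34 in ischemic HDAC2-/- kidneys, against 9.89, 9.81 and 9.19 in HDAC2-/- kidneys. Nr1h4, the bile acid receptor FXR, read 9.19, 9.03 and 9.43 in ischemic HDAC2-/- kidneys, against 8.10, 8.16 and 8.17 in HDAC2-/- kidneys. Emx1 fell by 1.03 and Tfap2b, of the distal nephron, by 0.88. Both were lost without ischemic HDAC2-/- replicate 3 or HDAC2-/- replicate 1 or 2, and Tfap2b also without ischemic replicate 2. Irx1 rose by 0.77 and lost its call without ischemic HDAC2-/- replicate 3 or HDAC2-/- replicate 1 or 2. The falls in the list numbered 2 without ischemic HDAC2-/- replicate 2 and 1 without the other 3 arrays just named.

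Podocyte markers fell in 3 of 12, with 0 higher and a median of -0.48. Tcf21 read 8.55, 9.17 and 8.48 in ischemic HDAC2-/- kidneys, against 10.41, 9.93 and 10.08 in HDAC2-/- kidneys. Ptpro and Robo2 fell by 0.83 and 0.55, but only Tcf21 was left without ischemic HDAC2-/- replicate 2 or 3 or HDAC2-/- replicate 1 or 2. Both also lost the call without HDAC2-/- replicate 3, and Robo2 without ischemic HDAC2-/- replicate 1 or any WT array. Nphs1 (nephrin) read 8.28, 7.67 and 7.89 in ischemic HDAC2-/- kidneys and 8.82, 8.89 and 8.21 in HDAC2-/- kidneys (adjusted p = 0.0646), and passed the threshold without ischemic HDAC2-/- replicate 1 or HDAC2-/- replicate 3.

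Endothelial markers moved in both directions, with 6 of 24 lower and 2 higher and a median of -0.11. Beside Aplnr, Ehd3, a membrane-bending protein of glomerular endothelium, read 8.70, 8.59 and 8.39 in ischemic HDAC2-/- kidneys, against 9.85, 9.43 and 9.32 in HDAC2-/- kidneys. Sox18, an endothelial transcription factor, fell by 1.0 and lost its call without ischemic HDAC2-/- replicate 3 or HDAC2-/- replicate 1. In the other direction, Cdh5 (VE-cadherin), the junction protein of endothelium, read 10.72, 10.76 and 10.70 in ischemic HDAC2-/- kidneys, against 9.87, 9.87 and 9.88 in HDAC2-/- kidneys. Its arrays were nearly level within each group (log2 change 0.85, SE 0.11, adjusted p = 0.000617). Nos3, the endothelial nitric oxide synthase, rose by 0.74, a call lost without any ischemic HDAC2-/- array or HDAC2-/- replicate 2 or 3. Leaving out ischemic HDAC2-/- replicate 3 gave 2 falls, and HDAC2-/- replicate 1 or 2 gave 3. Edn1 (endothelin 1), a vasoconstrictor, read 6.87, 5.91 and 6.19 in ischemic HDAC2-/- kidneys and 5.94, 5.80 and 5.37 in HDAC2-/- kidneys, so the groups overlapped (log2 change 0.62, 95% interval 0.05 to 1.19, adjusted p = 0.242).

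Among fibroblast, pericyte and smooth muscle markers, 2 of 15 rose and 0 fell, with a median of 0.04. Tagln (SM22) read 9.47, 9.72 and 9.59 in ischemic HDAC2-/- kidneys, against 8.52, 8.46 and 8.24 in HDAC2-/- kidneys. Pdgfra rose by 0.77 and kept its call only without ischemic HDAC2-/- replicate 3, HDAC2-/- replicate 3 or ischemic WT replicate 1 or 2.

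Some markers of myeloid leukocytes rose. Of 20 macrophage and monocyte markers, 3 rose and 0 fell, with a median of 0.07. Cd14, the coreceptor for lipopolysaccharide, read 8.85, 8.50 and 8.53 in ischemic HDAC2-/- kidneys, against 7.24, 6.71 and 6.35 in HDAC2-/- kidneys. Cd68, a lysosomal protein of macrophages, rose by 1.33 and Itgam (CD11b) by 0.92, and the call of Itgam was lost without ischemic HDAC2-/- replicate 1 or 2 or HDAC2-/- replicate 2 or 3. Adgre1, a defining marker of resident macrophages, stood at -0.29 (adjusted p = 0.564), and without ischemic HDAC2-/- replicate 2, 1 marker fell. Neutrophil markers rose in 3 of 16, with 0 lower and 15 above 0. Retnlg read 7.54, 7.01 and 6.10 in ischemic HDAC2-/- kidneys, against 4.18, 4.47 and 4.75 in HDAC2-/- kidneys. The calprotectin genes S100a8 and S100a9 rose by 1.51 and 1.06, with adjusted p of 0.0491 and 0.0472. Leaving out ischemic HDAC2-/- replicate 1 or HDAC2-/- replicate 1 or 2 gave 0 rises, and ischemic HDAC2-/- replicate 2, ischemic WT replicate 1 or any WT array gave 1.

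Lymphocyte lists had no call, with 0 of 14 T and NK cell markers (median -0.15) and 0 of 8 B and plasma cell markers (median -0.02). Cd3e, of the T cell receptor, read 5.92, 6.26 and 5.92 in ischemic HDAC2-/- kidneys and 6.64, 6.52 and 6.40 in HDAC2-/- kidneys (adjusted p = 0.225). Gzmb stood at 0.48, and the B cell genes Blk and Cd79b at -0.23 and -0.22. Tissue next to the kidney was also checked. Fabp4, a fatty acid binding protein of adipocytes and capillary endothelium, read 11.07, 11.52 and 11.30 in ischemic HDAC2-/- kidneys, against 9.61, 9.60 and 10 in HDAC2-/- kidneys, and was the 1 of 8 adipocyte markers that rose. Adipoq (adiponectin), a defining adipocyte marker, read 4.30, 4.52 and 4.20 in ischemic HDAC2-/- kidneys and 4.61, 4.30 and 4.17 in HDAC2-/- kidneys. The mean of the 8 markers was 6.02 to 6.23 in ischemic HDAC2-/- arrays and 5.81 to 5.91 in HDAC2-/- arrays. Adrenal cortex (0 of 6), urothelium (0 of 7) and inner medulla (0 of 4) had no call, with Cyp11a1 at -0.31, Star at 0.20, Psca at 0.65, Trp63 at -0.14, Nfat5 at 0.40 and Slc4a11 at 0.63. Psca and Nfat5 passed the threshold without HDAC2-/- replicate 3. Of 7 erythroid genes, 0 had a probe set of 1 symbol.

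**Figure D3:**
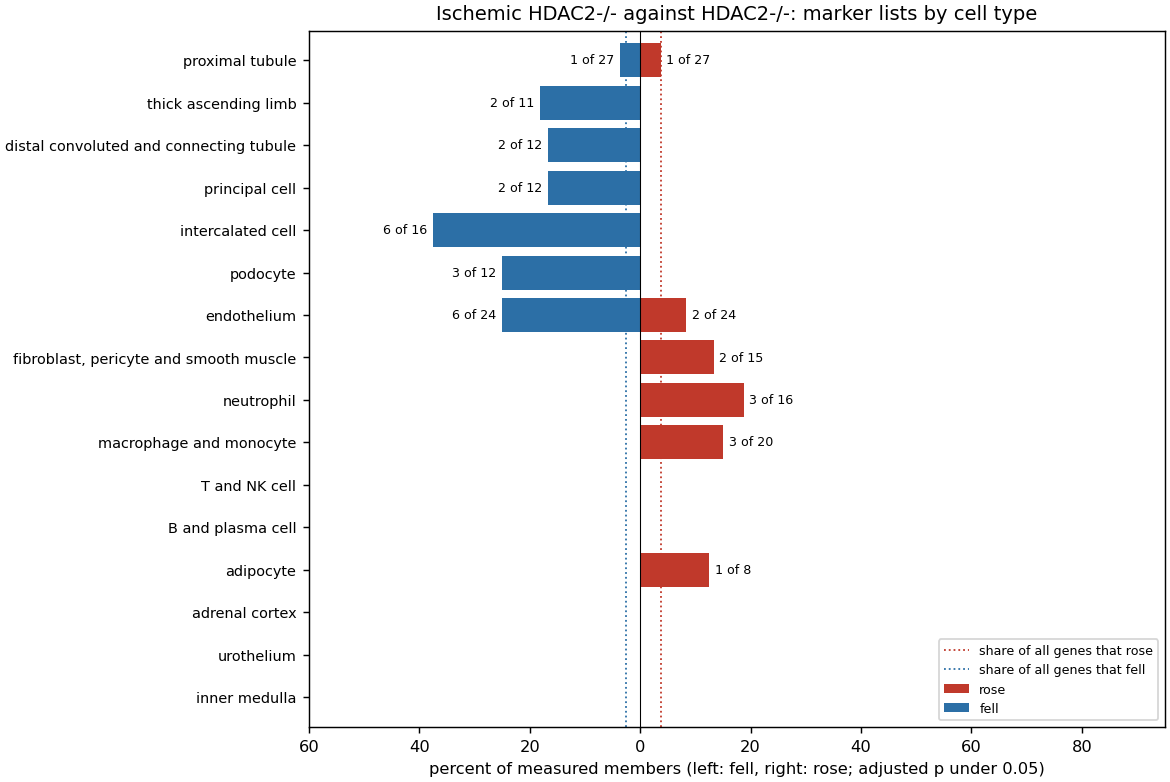
Percent of the measured markers of each cell type that rose (red, right) or fell (blue, left) in ischemic HDAC2-/- against HDAC2-/- kidneys at an adjusted p under 0.05, with counts beside the bars and dotted lines for the shares over all genes (3.71% and 2.55%). Intercalated cell (6 of 16), podocyte (3 of 12) and endothelial (6 of 24) markers have the longest bars to the left.

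MicroRNA genes were counted and, after their values were seen, named. The array reads their hairpins and primary transcripts, not the mature strands. Of 484 measured, 11 rose and 1 fell, below the shares over all genes. Some of the rises shared a position. Mir17, Mir18, Mir19a and Mir20a lie within 1 cluster on chromosome 14, and Mir221 and Mir222 lie next to each other on chromosome X, while the other 5 do not lie beside another that rose. The probe set of Mir19b-1 and Mir92-1, of the chromosome 14 cluster, carries several symbols and was not counted. Mir18 read 8.45, 8.66 and 8.37 in ischemic HDAC2-/- kidneys, against 7.18, 7.26 and 7.29 in HDAC2-/- kidneys, and its groups were far apart (log2 change 1.25, SE 0.16, adjusted p = 0.000424). Mir19a rose by 1.29, Mir17 by 0.91 and Mir20a by 0.82. The call of Mir17 was lost without HDAC2-/- replicate 2, and that of Mir20a without ischemic HDAC2-/- replicate 2 or 3 or HDAC2-/- replicate 2. Mir222 read 6.05, 4.94 and 5.72 in ischemic HDAC2-/- kidneys, against 4.12, 4.14 and 3.90 in HDAC2-/- kidneys, and Mir221 rose by 1.25. Mir27a, on chromosome 8, rose by 1.0, and its neighbour Mir23a stood at 0.50 (adjusted p = 0.49). The other rises were those of Mir3962, Mir1938, Mir674 and Mir1931, and Mir681 fell by 1.27, a call lost without ischemic HDAC2-/- replicate 3. Calls of Mir674 and Mir1931 were lost without ischemic HDAC2-/- replicate 1 or 3 or HDAC2-/- replicate 1 or 2, and that of Mir674 also without ischemic replicate 2. The count of rises was 17 without HDAC2-/- replicate 3 and 7 without HDAC2-/- replicate 2, and that of falls was 3 for HDAC2-/- replicate 3, 2 for HDAC2-/- replicate 2 and 0 for ischemic HDAC2-/- replicate 3. The mature strands of the clustered genes, from RefSeq (build GRCm38.p6), are shown with the seed (bases 2 to 8) in capitals, because members of these clusters share seeds. The strands miR-17-5p and miR-20a-5p share a seed, from which that of miR-18a-5p differs, and miR-221-3p and miR-222-3p share another.
mmu-miR-17-5p: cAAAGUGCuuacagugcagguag
mmu-miR-20a-5p: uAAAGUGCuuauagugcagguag
mmu-miR-18a-5p: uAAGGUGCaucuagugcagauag
mmu-miR-19a-3p: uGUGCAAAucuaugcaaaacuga
mmu-miR-221-3p: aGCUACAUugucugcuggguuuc
mmu-miR-222-3p: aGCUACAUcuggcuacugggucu
mmu-miR-27a-3p: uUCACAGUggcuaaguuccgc

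**Figure D4:**
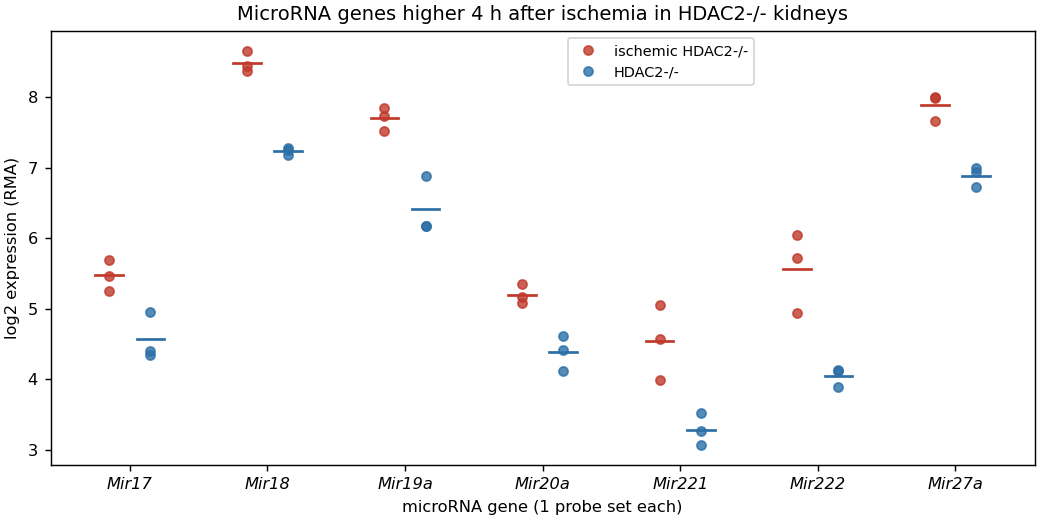
Log2 expression (y axis) of 7 microRNA genes in ischemic HDAC2-/- kidneys (red, left) and HDAC2-/- kidneys (blue, right), with 1 point per array, 3 per group, and lines at the group means. No gene has overlapping groups, and Mir222 and Mir221 vary most among the ischemic arrays.

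The response was set beside that of WT kidneys to ask where it differed with the deletion. In ischemic WT against WT kidneys 4730 probe sets changed (13.7%), of which 2258 rose (6.55%) and 2472 fell (7.17%). Of the 1691 called in HDAC2-/- kidneys, 1448 were also called in WT kidneys, which is 85.6% of the HDAC2-/- calls and 30.6% of the WT calls. The median change of the 1013 rises was 0.93 in HDAC2-/- kidneys and 1.02 in WT kidneys, and that of the 678 falls was -0.76 in HDAC2-/- kidneys and -0.86 in WT kidneys. Changes had opposite signs in 15 of the 1691. The difference of the 2 responses, tested as an interaction in limma, passed an adjusted p under 0.05 in 0 probe sets, with 1445 (4.19%) at an unadjusted p under 0.05 and a smallest adjusted p of 0.956. Without ischemic WT replicate 2, 1 probe set passed. A larger count in one genotype is therefore not shown to be a different response.

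Single genes with the smallest p of this difference are given as a description. Irx1, of the intermediate tubule, changed by 0.77 in HDAC2-/- kidneys and by -0.48 in WT kidneys, with a difference of 1.25 (95% interval 0.70 to 1.80). The other genes with a more positive change in HDAC2-/- kidneys were Zdhhc2 (0.33 in HDAC2-/-, -0.57 in WT), Fam43a (0.53, -0.41), Sostdc1 (-0.59, -1.34) and Slc23a3 (0.44, -0.70). Sostdc1 fell in both genotypes, and in HDAC2-/- kidneys that call was lost without ischemic HDAC2-/- replicate 1 or 3 or HDAC2-/- replicate 1 or 2. Those with a more negative change were Il18rap (-0.20 in HDAC2-/-, 0.73 in WT), Nt5c1a (0.36, 1.91), Hpcal4 (0.40, 1.54), Atp6v0d2 (-0.41, 0.66) and Zfp612 (-0.12, 0.82). Atp6v0d2 is a subunit of the proton pump that the intercalated cell list holds, and the median difference over that list was -0.35. This was not particular to that list, since the median difference was -0.47 over the distal convoluted and connecting tubule list. It was 0.003 over the thick ascending limb list and 0.17 over the principal cell list. Among the leading genes, Sprr1a changed by 4.76 in HDAC2-/- kidneys and 3.57 in WT kidneys, and Cyp27b1 by -1.80 in HDAC2-/- kidneys and -0.79 in WT kidneys. Serpina3n, an acute phase protease inhibitor chosen after its values were seen, changed by 1.71 in HDAC2-/- kidneys and 3.15 in WT kidneys. The adjusted p of each single-gene difference named here was 0.956.

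Group by group, the counts in HDAC2-/- kidneys were at most those in WT kidneys for heat shock proteins (12 and 15 of 24), immediate early factors (22 and 23 of 29), injury markers (21 and 23 of 28) and ribosome biogenesis (11 and 19 of 33), where 3.71% of all genes rose in HDAC2-/- and 8.23% in WT kidneys. Their medians were 0.61 in HDAC2-/- and 0.86 in WT kidneys for heat shock proteins, 1.52 and 1.56 for immediate early factors, 1.40 and 1.56 for injury markers and 0.43 and 0.72 for ribosome biogenesis. Endoplasmic reticulum chaperones had 2 rises of 19 in HDAC2-/- kidneys and 9 in WT kidneys, and proteasome subunits 1 and 9 of 30. Intercalated cell markers had 6 falls and 0 rises of 16 in HDAC2-/- kidneys, and 5 falls and 1 rise in WT kidneys. Over all genes, 2.55% fell in HDAC2-/- kidneys and 8.82% in WT kidneys. No list difference was tested, and the fit of single genes above called none.

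**Figure D5:**
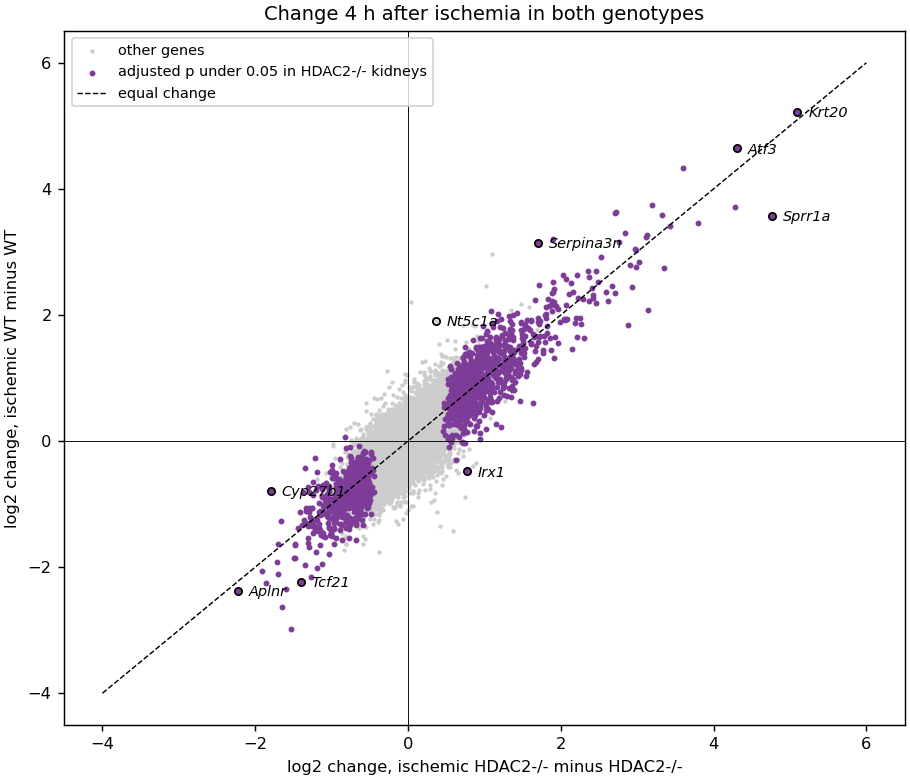
Log2 change 4 h after ischemia in HDAC2-/- kidneys (x axis) and WT kidneys (y axis), 1 point per gene, 22180 genes; purple marks genes with an adjusted p under 0.05 in HDAC2-/- kidneys, and circles mark 9 genes named in the text. The dashed line is equal change; Krt20 and Atf3 lie near it, Sprr1a, Irx1 and Tcf21 below or to its right and Serpina3n, Nt5c1a and Cyp27b1 above it.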

How the data were processed

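RNA from the kidneys of 12 mice was measured on as many GeneChip Mouse Gene 2.0 ST arrays. The deposited log2 values are RMA signals that the authors made with Transcriptome Analysis Console 4.0, and no further normalization or filter was applied. The genome build is not given in the sources used here. The table of the platform names 23521 of 34472 probe sets by 1 symbol, 1820 by several and 9131 not at all. Where a gene had several, the probe set with the highest mean stood for it.

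limma 3.58.1 in R 4.3.3 fitted 1 mean per group to the 12 arrays, with empirical Bayes, and the Benjamini-Hochberg adjustment ran across the array. There were 31 gene lists by function and 16 by cell type with measured members. Members and lists were chosen with earlier results of these data known, so no list is independent evidence of its direction. The text names Hdac2 and Edn1, the 15 largest rises and falls without overlap (predicted genes and small RNAs excluded), up to 3 called members per list and direction, or, in a list with no call, the 2 of smallest p, and the 5 genes with the smallest p of the interaction in each direction. MicroRNA genes, Havcr1, Hspe1, Maff, Serpina3n and markers without a call were added after their values were seen. The fit was tested on simulated data. Array number limits the precision. Motifs were searched on both strands of RefSeq promoters.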

Additional observations from a re-analysis of the deposited data

How the results depend on the processing

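The count of 1691 changed probe sets (1013 higher, 678 lower) was 1219 to 2023 under quantile normalization, median centring, a filter on probe sets with a mean below 5, a restriction to those with 1 symbol, a fit to the 2 groups alone (1219, with 418 lower), trended robust empirical Bayes, the replicate block (1754) and the threshold in the series' design (2002). It was 844 (524 higher, 320 lower) without empirical Bayes, 6356 (2947 higher, 3409 lower) with array weights, and 617 (459 higher, 158 lower) at an unadjusted p under 0.05 with at least 2-fold. Leaving out 1 array gave 744 to 2848 in all, 523 to 1477 higher and 221 to 1371 lower. The interaction, which the fit to the 2 groups cannot hold, gave 0 under each of the other settings except 92 at an unadjusted p under 0.05 with at least 2-fold, and 0 to 1 with 1 array left out. The causes were not tested. Array weights moved the share of rises to 46.4% from 59.9% of the calls, and the 2-fold threshold to 74.4%. Same-numbered HDAC2-/- arrays had deviations that correlated at 0.30, -0.14 and 0.17, so the numbers were not taken as pairs. The block moved none of the counts over all probe sets by over 1.5 times, but the calls of Gatm, Psmd11, Slc7a8, Kcnj10, Pdgfra and S100a8 were lost under it and Mcm2 gained one, and 6 list counts moved. Over all named genes and alternatives, 3857 of 4233 values kept their side of the threshold, 339 lost the call, 37 gained it and 0 reversed, and 343 of 3102 list counts and medians moved.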

Other observations

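Gene families outside the lists were looked at after the values were seen, and get no test of their own. Over all genes, 3.71% rose and 2.55% fell. Calls over all probe sets numbered 1691, and 2848 without HDAC2-/- replicate 3, so counts without that array have a larger background. Of 51 measured translation initiation factors and their binding proteins, 8 rose and 0 fell, with a median change of 0.12. Eif4ebp1, the repressor of the cap-binding protein eIF4E, read 11.22, 11.73 and 11.51 in ischemic HDAC2-/- kidneys, against 9.93, 9.99 and 9.91 in HDAC2-/- kidneys. Eif1a, which scans for the start codon with the small ribosomal subunit, rose by 1.27, Eif5 by 1.01 and Eif3a by 0.87. Leaving out HDAC2-/- replicate 3 gave 12 rises, replicate 2 gave 4 and replicate 1 gave 5, while ischemic HDAC2-/- replicate 3 gave 4 and ischemic replicate 1 gave 5.

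Ephrins and their Eph receptors, which signal between touching cells, moved in both directions. Of 21 measured, 1 rose and 5 fell, with a median change of -0.20. Epha2 read 9.97, 8.36 and 8.92 in ischemic HDAC2-/- kidneys, against 7.08, 7.01 and 6.54 in HDAC2-/- kidneys. The falls were those of 4 ephrins and of 1 receptor, Ephb3, which fell by 0.68. Of ephrins of the A class, Efna3 fell by 0.97, Efna4 by 0.87 and Efna2 by 0.83. Efnb2, a ligand of EphB receptors and a marker of arterial endothelium, fell by 0.85. The call of Efna2 was lost without ischemic HDAC2-/- replicate 1 or 3, any HDAC2-/- array or WT replicate 2. The count of falls was 3 without ischemic HDAC2-/- replicate 3, HDAC2-/- replicate 1 or 2 or WT replicate 2.

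Ptgs2, the inducible cyclooxygenase, rose by 2.03, and its arrays were spread, at 8.03, 5.63 and 6.50 in ischemic HDAC2-/- kidneys and 4.41, 4.80 and 4.86 in HDAC2-/- kidneys. Its call was lost without ischemic HDAC2-/- replicate 3 or HDAC2-/- replicate 1 or 2. Lif, of the IL-6 family, was also highest in ischemic replicate 1, with 9.21, 6.59 and 6.80 in ischemic HDAC2-/- kidneys against 5.86, 5.92 and 5.76 in HDAC2-/- kidneys, and did not pass (adjusted p = 0.0989). Semaphorins and plexins rose in 6 of 30 and fell in 1, led by Sema7a at 1.77, Sema6b at 1.26 and Sema6d at 1.08, with Sema6c lower by 0.84. Between 4 and 7 of them rose and between 0 and 6 fell with 1 array left out, the 6 falls without HDAC2-/- replicate 3 and the 4 rises without ischemic HDAC2-/- replicate 1 or HDAC2-/- replicate 2. Falls were 0 without ischemic HDAC2-/- replicate 3 or HDAC2-/- replicate 2 and 2 without ischemic HDAC2-/- replicate 1.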
